A study of Rattus norvegicus with 2 samples.

Results

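The genes described here encode the subunits of heterotrimeric G proteins, the switches that carry signals from receptors of the cell surface, and the RGS proteins that turn those switches off. They were found by symbol, as every alpha, beta or gamma subunit or RGS gene with a probe set that the platform annotation assigns to exactly 1 gene, and the brightest probe set of a gene, by its mean over both arrays, gave its value. The search found 38 genes on 50 probe sets, of 10411 genes in all, namely 11 alpha subunits, 5 beta subunits, 7 gamma subunits and 15 RGS genes. The samples were rat sympathetic neurons, which release noradrenaline onto the heart, vessels and other targets, on 2 oligonucleotide arrays (Affymetrix Rat Expression Set 230A), with 1 array per condition. One array held neurons that had been cultured with a myocyte target and then lifted off with EDTA, named neurons from co-culture below, and the other held neurons cultured without that target, named neurons alone. The sources used here do not give strain, age, time in culture or the number of cultures pooled. The description field of the co-culture sample speaks of neurons grown alone, against its title and source name, and the title was followed. Having 1 array per condition, the data allow no test, so each difference compares these arrays and has no replicate check.

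A G protein rests as a trimer of an alpha subunit with bound GDP and a tightly joined beta-gamma pair. An activated receptor makes the alpha subunit exchange GDP for GTP, after which alpha and beta-gamma act separately on enzymes and ion channels until the alpha subunit hydrolyses its GTP, a step that RGS proteins speed up. The alpha subunit names the pathway: Gs stimulates adenylyl cyclase, Gi inhibits it, Gi and Go free beta-gamma, and Gq activates phospholipase C beta. In sympathetic neurons noradrenaline and acetylcholine act back on the neuron this way, as when Gi/o-derived beta-gamma slows N-type calcium channels or when Gq signalling closes M-type potassium channels.

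The main pattern was a split among some of the alpha subunits. The 4 of the Gi/o family with sufficient signal and Gna11 were lower in neurons from co-culture, Gnai1 and Gnaz by less than the others. Gnas (Gs) and the beta subunits Gnb1 and Gnb2 were close on both arrays. So were 2 probe sets shared by Gnai1 and Gnai3 (2136 in neurons from co-culture against 2202 in neurons alone, and 617 against 688). The neuronal gamma subunit Gng3 and the RGS genes Rgs7, Rgs9 and Rgs19 were also lower, while Rgs2, Rgs3, Rgs4 and Rgs16 were close. For these comparisons, 25 of the 38 genes lay above a signal filter, set so that a gene's mean log2 intensity over both arrays reached the mean of the array medians (175.0 in neurons from co-culture and 185.7 in neurons alone). Of the 25, 19 were lower and 6 higher in neurons from co-culture, against 52.8% lower and 47.2% higher among the 6084 genes above the filter. Median scaling of the arrays changes this to 14 lower and 11 higher, against 38.3% of all genes lower. A difference of at least 1.5-fold was reached by 4 of the 25 on the lower side (16%, against 2.73% of all genes above the filter) and by 0 on the higher side (against 1.55% of all genes). None of the 25 reached 2-fold in either direction, against 0.46% of genes that were lower by that much and 0.197% that were higher. Without the filter, 26 of the 38 were lower, 8 were higher and 4 were under the intensity floor on both arrays, against 49.7% lower and 38.5% higher among all 10411 genes. The 25 genes had a median log2 ratio (co-culture over alone) of -0.13, and all genes above the filter one of -0.02.

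**Figure D1:**
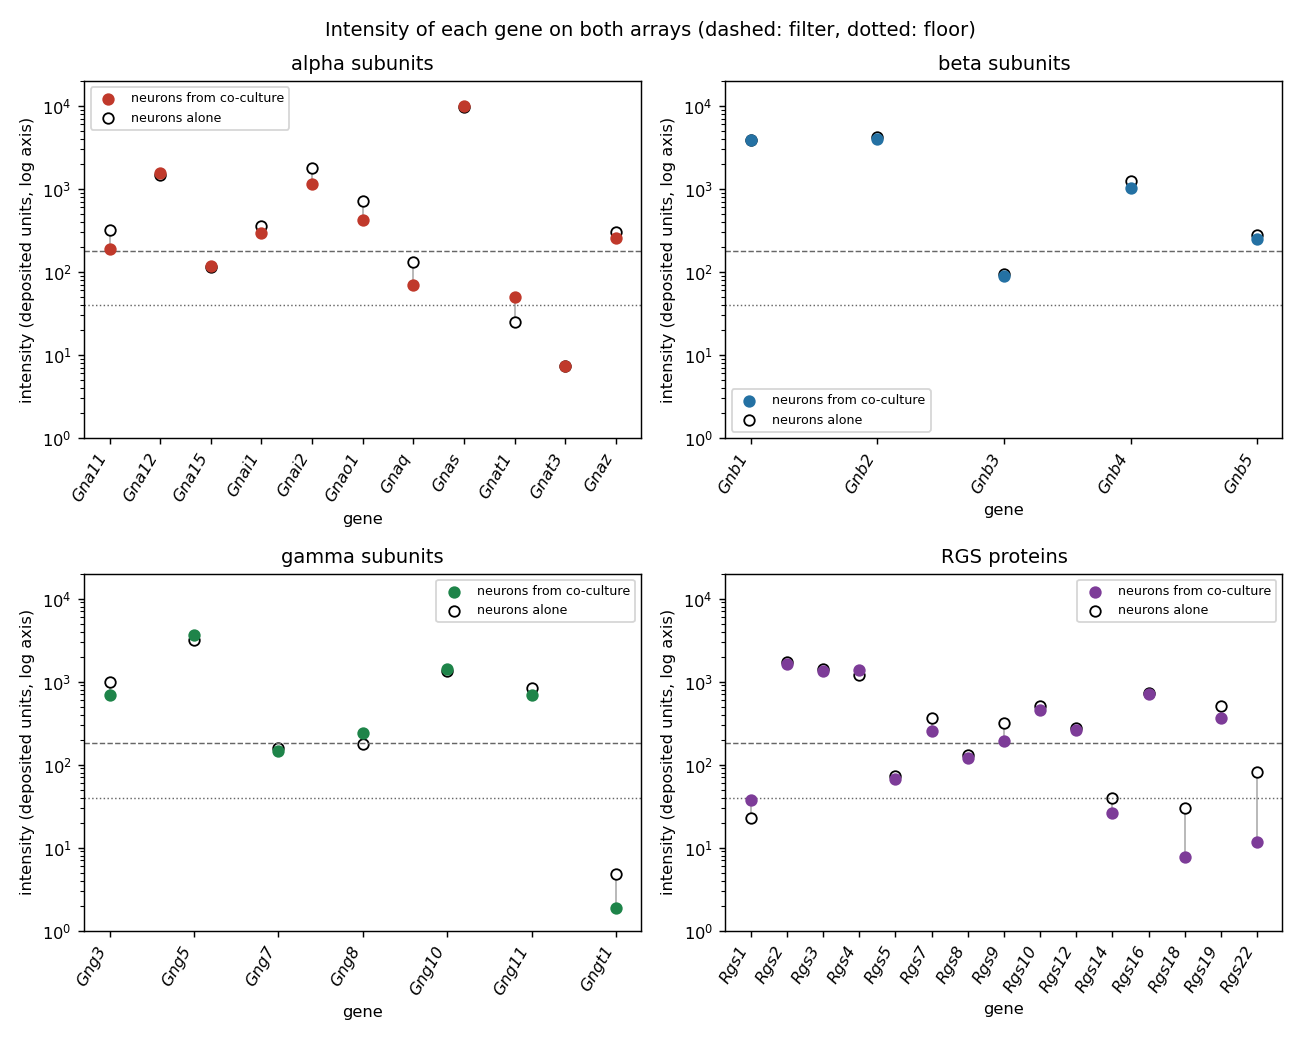
Deposited intensity (log axis) of each of the 38 genes, in 4 panels by protein class, with a filled point for neurons from co-culture and an open point for neurons alone. The dashed line is the filter and the dotted line the floor, and the points of Gna11, Gnai2, Gnao1, Gng3, Rgs7 and Rgs9 are visibly apart with co-culture below.

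The yardstick for the size of a difference was the spread of single probe sets. It was estimated from 701 genes with more than 1 probe set of sufficient signal, and came to an SD of 0.26 on the log2 scale, or 0.31, 0.27, 0.26 and 0.20 in 4 groups of genes from dim to bright. This is a technical spread between probe sets of the same RNA, and it holds no variation between cultures. In the set, 12 of the 25 genes differed by more than this SD (against 28.1% of all genes above the filter), and 13 did not.

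Markers of the neurons themselves were lower as well, and by more at the median than the 25 genes (-0.13). All 10 measured markers of sympathetic neurons were lower in neurons from co-culture, with a median log2 ratio of -0.39 and a summed intensity of 30534 against 37767 in neurons alone. The sizes were uneven, from -1.34 (Slc6a2) to -0.12 (Prph). Prph, Gap43 (-0.13) and Tubb3 (-0.19), named after their values were seen, lay within the probe set spread of 0.20. The brightest were Npy (5507 against 6799) and Th (4575 against 6175). Of the 25 G protein and RGS genes, 7 had a ratio at or below that median (against 7.84% of all genes above the filter), namely Gna11, Gnao1, Gnai2, Gng3, Rgs9, Rgs7 and Rgs19. All 7 fibroblast markers were higher (median 0.25, summed intensity 33303 against 28869), with Col1a1 at 10750 against 9988 and Col1a2 at 9907 against 9350. Fibroblast transcripts were thus bright on both arrays, and in bulk RNA fewer neurons among other cells cannot be told apart from less RNA of a gene per neuron. The part that cell composition played in the differences below was not tested. Of 4 glial markers above the filter, 3 were higher (median log2 ratio 0.30). The summed intensity of all 6 was 4706 against 4541, most of it from Pmp22 (2916 against 3141), with Sox10 at 750.1 against 706. Singled out after their values were seen, S100b had 524 in neurons from co-culture and 263 in neurons alone (log2 ratio 0.99), and Erbb3 had 231 against 160.5 (0.52). Markers of smooth muscle and pericytes were mixed, with 5 lower and 2 higher above the filter (median -0.23) and a summed intensity of 8103 against 9707 over all 9. Tagln (3500 against 4094) and Acta2 (2913 against 4040) were lower, while Pdgfrb (481 against 340, log2 ratio 0.50) and Cnn1 (423 against 353, 0.26), also singled out in this way, were higher. Markers of macrophages and leukocytes had a summed intensity of 1695 against 2202 (Fcer1g 460.2 against 796, Cd14 475 against 419.6). Of these 10 markers 8 were lower and 2, Cd14 among them, higher, with 7 of 10 below the filter. Cardiac markers had 1321 against 871 (Tnnt2 408 against 293, Nppb 309 against 179.9), with 6 of 9 below the filter and the other 3 higher, and endothelial markers 204 against 231, with 4 of 4 below the filter (Flt1 97.2 against 106, Vwf 39.96 against 63.6). The ratio of the 3' to the 5' control probe sets, a sign of RNA quality, was 1.24 in neurons from co-culture and 1.15 in neurons alone for actin, and 1.17 against 1.13 for Gapdh. The part of RNA quality in the differences was not tested.

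All 4 Gi/o alpha subunits above the filter were lower. Gnao1, the alpha subunit of Go, which is abundant in nerve cells, had an intensity of 424 in neurons from co-culture and 711 in neurons alone, 1.67-fold lower (log2 ratio -0.74 ± 0.26, SD of 1 probe set). Among genes in the same signal group, 1.18% had a ratio as low or lower. Gnai2, an inhibitor of adenylyl cyclase found in most cell types and abundant in leukocytes, had 1135 in neurons from co-culture and 1774 in neurons alone, 1.56-fold lower (log2 ratio -0.64 ± 0.20). In its signal group, 0.657% of genes were as low or lower, and median scaling took its ratio to -0.56, under the 1.5-fold line. The related Gnai1 was lower by less, at 292 against 362 (log2 ratio -0.31 ± 0.27). Gnaz, the pertussis toxin-insensitive member of the family, had 255 in neurons from co-culture and 305 in neurons alone (log2 ratio -0.26 ± 0.31), within the spread of a probe set. A second Gnaz probe set, below the filter, had 68.1 against 196, a log2 ratio of -1.53, so that the direction was shared by both but the size was not. The 4 Gi/o genes above the filter thus ran the same way with sizes from -0.26 to -0.74 on the log2 scale. The 2 probe sets shared by Gnai1 and Gnai3 were closer, at -0.04 and -0.16.

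Outside the Gi/o family the alpha subunits went apart. Gna11, which couples receptors to phospholipase C beta as Gq does, had 187 in neurons from co-culture and 323 in neurons alone, 1.72-fold lower (log2 ratio -0.78 ± 0.31). It had the largest difference among the 25 genes, and it was near the filter in neurons from co-culture. Gnaq itself was below the filter on both arrays, at 70.0 against 132, and its ratio of -0.92 is given after its value was seen. Gnas, the alpha subunit of Gs, differed by much less than the probe set spread, with 10056 in neurons from co-culture and 9853 in neurons alone (log2 ratio 0.03 ± 0.20, negative under 4 of the 13 alternative settings). The Gnas locus gives several transcripts that share exons, and its second probe set read 2857 against 3149 (-0.14). Gna12, of the G12/13 family, had 1559 in neurons from co-culture and 1494 in neurons alone (log2 ratio 0.06, negative under scaling to the spiked controls and with the mean over its probe sets), but its second probe set, also above the filter, had 299.96 against 451 (-0.59), so its direction is not settled by these arrays. Under the filter lay also Gna15, an alpha subunit of blood cells (119.8 against 114), and the sensory alpha subunits Gnat1 (49.9 against 25.1) and Gnat3 (7.31 against 7.30), all at low signal. Over the 7 alpha subunits above the filter the median log2 ratio was -0.31, or -0.64 when all probe sets of a gene were averaged, through the second probe set of Gnaz.

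**Figure D2:**
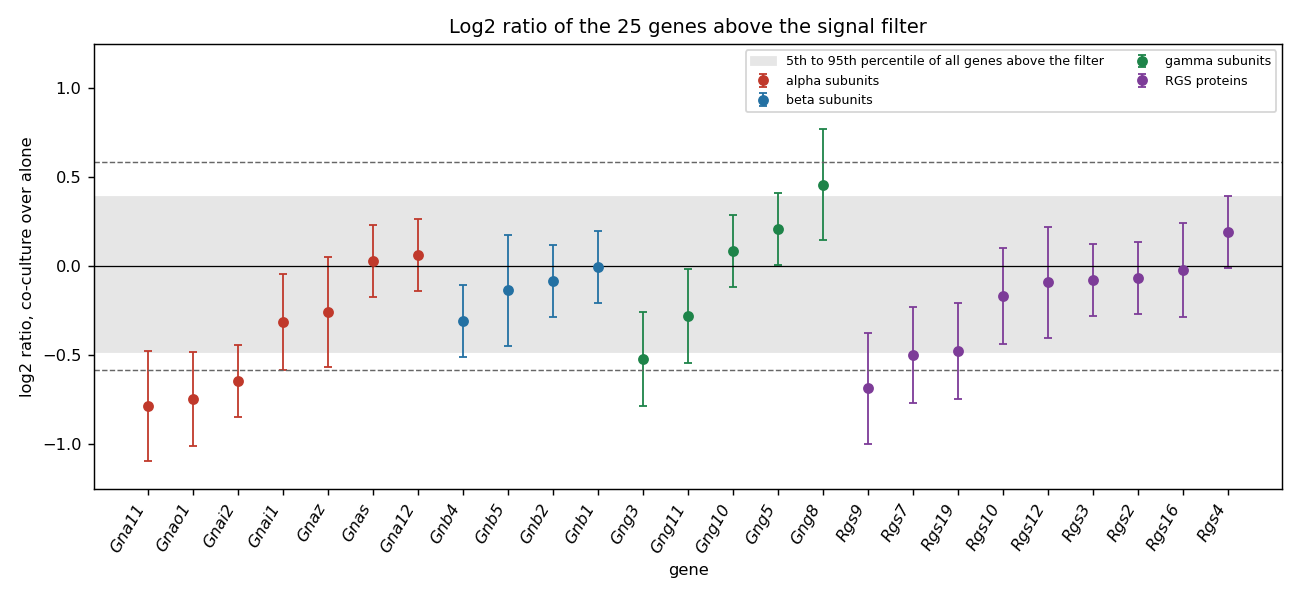
Log2 ratio of co-culture over alone for the 25 genes above the filter, ordered within class, with bars of 1 SD of a single probe set. The grey band spans the 5th to 95th percentile of all genes above the filter (-0.48 to 0.39) and the dashed lines mark 1.5-fold, which Gna11, Gnao1, Gnai2 and Rgs9 pass on the lower side.

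Proximal promoters are shown for 4 genes picked with their values known: Gnao1, Gng3 and Rgs7, which were lower, and Rgs4, which was close to slightly higher. Each runs from 250 bases before to 50 bases after the RefSeq start on GRCr8 and is given 5′ to 3′ on the gene's strand. Capitals mark matches, on either strand, to the cAMP response element TGACGTCA, the GC box GGGCGG or the TATA box TATAAA, none of which contains another. Gnao1 lies on chr19:11198388-11198687, minus strand, Gng3 on chr1:215162669-215162968, minus strand, Rgs7 on chr13:89941001-89941300, minus strand, and Rgs4 on chr13:84475835-84476134, minus strand.
Gnao1: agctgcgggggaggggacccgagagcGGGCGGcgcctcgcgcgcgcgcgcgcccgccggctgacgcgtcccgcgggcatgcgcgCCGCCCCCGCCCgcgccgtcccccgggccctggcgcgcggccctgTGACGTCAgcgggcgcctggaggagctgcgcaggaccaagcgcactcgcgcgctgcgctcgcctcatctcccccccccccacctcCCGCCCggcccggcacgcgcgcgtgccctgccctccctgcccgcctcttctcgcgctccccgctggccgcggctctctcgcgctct
Gng3: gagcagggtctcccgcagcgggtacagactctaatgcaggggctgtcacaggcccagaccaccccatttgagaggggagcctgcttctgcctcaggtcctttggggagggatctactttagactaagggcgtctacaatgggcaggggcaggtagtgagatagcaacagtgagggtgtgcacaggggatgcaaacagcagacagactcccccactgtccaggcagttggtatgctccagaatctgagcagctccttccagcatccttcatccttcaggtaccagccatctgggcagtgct
Rgs7: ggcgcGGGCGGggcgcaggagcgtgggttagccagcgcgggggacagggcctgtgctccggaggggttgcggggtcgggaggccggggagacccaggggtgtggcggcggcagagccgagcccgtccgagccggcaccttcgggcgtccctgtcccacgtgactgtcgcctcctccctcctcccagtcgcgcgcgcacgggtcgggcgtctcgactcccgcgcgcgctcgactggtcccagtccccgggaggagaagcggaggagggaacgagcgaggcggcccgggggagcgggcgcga
Rgs4: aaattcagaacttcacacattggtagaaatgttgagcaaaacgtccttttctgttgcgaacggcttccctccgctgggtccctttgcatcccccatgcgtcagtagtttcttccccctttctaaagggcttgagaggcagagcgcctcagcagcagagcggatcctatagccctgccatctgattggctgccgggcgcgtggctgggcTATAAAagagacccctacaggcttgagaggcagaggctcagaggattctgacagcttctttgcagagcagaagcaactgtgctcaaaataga
The Gnao1 window held 1 cAMP response element and 4 GC boxes, the Rgs7 window 1 GC box, the Rgs4 window 1 TATA box, and the Gng3 window none of these letters. Of the 32 genes of the set with a promoter in the table, 1 held the cAMP response element (1.83% of all 33469 promoters), 6 the TATA box (14.2% of all) and 19 the GC box (33.1% of all). The G and C content had a median of 63.5% over these 32 and 51.7% over all promoters. These matches describe the letters of the windows, and binding was not measured.

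The beta subunits, which pair with gamma and carry the signal to channels, were close on both arrays for Gnb1, Gnb2 and Gnb5, and Gnb4 was lower. Gnb1 had 3895 in neurons from co-culture and 3913 in neurons alone (log2 ratio -0.01 ± 0.20), and Gnb2 had 3970.4 against 4198 (-0.08 ± 0.20). Neither exceeds the spread of a probe set, and both signs turn under median scaling, that of Gnb1 also under trimmed mean scaling and with the mean over its probe sets. The 2 other probe sets of Gnb1 read 1367 against 1346 (0.02) and 889 against 589 (0.59), so that 1 of its 3 probe sets was 1.51-fold higher. Gnb4, a widely expressed beta subunit, was the one that differed by more than the spread, at 1024 in neurons from co-culture and 1265 in neurons alone (log2 ratio -0.31 ± 0.20). Gnb5, the divergent beta subunit that binds RGS proteins of the R7 family in place of a gamma subunit, had 252 against 277 (-0.13 ± 0.31). Gnb3, known from cones and some other cells, was below the filter (90.1 against 95.2).

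Gamma subunits, the small lipid-anchored partners of beta, did not run one way. Gng3, a gamma subunit of neurons, had 692 in neurons from co-culture and 992 in neurons alone, 1.43-fold lower (log2 ratio -0.52 ± 0.26), and 3.09% of genes in its signal group were as low or lower. Gng11, a farnesylated gamma subunit of many non-neuronal tissues, had 691 against 838 (-0.28 ± 0.26). Both were thus lower by more than the probe set spread. On the higher side, Gng5, a broadly expressed gamma subunit, had 3669.6 in neurons from co-culture and 3167 in neurons alone (0.21 ± 0.20), though its second, dim probe set read the same on both (124.3 against 124.4). Gng8, first known from olfactory neurons, had 241 in neurons from co-culture and 176 in neurons alone (0.46 ± 0.31), the highest ratio of the 25 genes, with a ratio as low or lower in 95.5% of genes of its signal group. Gng10, another broadly expressed gamma subunit, was close at 1404 against 1325 (0.08 ± 0.20, or -0.01 under scaling to the spiked controls). The median of these 5 was 0.08. Gng7, of striatal neurons among others, had 146 against 159 and lay below the filter, as did the rod subunit Gngt1, which was under the floor on both arrays (1.89 against 4.85).

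**Figure D3:**
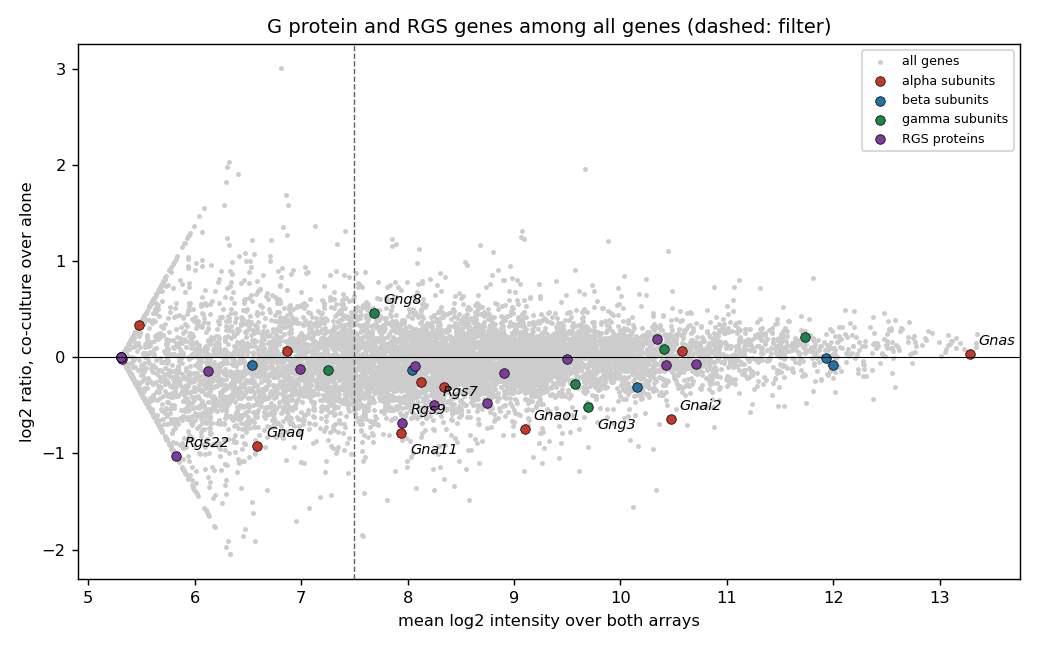
Log2 ratio of co-culture over alone against the mean log2 intensity of both arrays, with all 10411 genes in grey and the 38 G protein and RGS genes in colour. The genes named in the plot on the lower edge (Gnai2, Gnao1, Gna11, Rgs9, Rgs7 and Gng3) lie to the right of the dashed filter line, and Gnaq and Rgs22 to its left.

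The RGS genes above the filter split by subfamily. The 2 measured members of the R7 family, neuronal RGS proteins that act on Gi/o alpha subunits and need Gnb5 for stability, were both lower. Rgs9 had 195 in neurons from co-culture and 313 in neurons alone, 1.61-fold lower (log2 ratio -0.69 ± 0.31), and Rgs7 had 256 against 362, 1.41-fold lower (-0.50 ± 0.27). In their signal groups, 2.50% of genes were as low as Rgs9 or lower and 5.72% as low as Rgs7 or lower. Rgs19, of the RZ family and known to act on Gi alpha subunits, had 364 in neurons from co-culture and 507 in neurons alone, 1.39-fold lower (-0.48 ± 0.27). All 3 genes rest on a single probe set each, and Rgs9 on one that can detect several transcripts.

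The R4 family, small RGS proteins with little beyond the RGS domain except in Rgs3, was close on both arrays for its 4 genes above the filter. The other 4 of its 8 genes, Rgs1, Rgs5, Rgs8 and Rgs18, were below the filter and say nothing on direction. Rgs2, which prefers Gq, had 1642 in neurons from co-culture and 1719 in neurons alone (log2 ratio -0.07 ± 0.20), and its second probe set gave -0.04. Rgs3 had 1343 against 1416 (-0.08 ± 0.20), with 2 dim probe sets at 0.20 and -0.58. The signs of Rgs2 and Rgs3 turned under median scaling, at sizes far under the probe set spread. Rgs4, a regulator of Gi/o and Gq signals in nerve cells and heart, had 1387 in neurons from co-culture and 1211 in neurons alone (0.20 ± 0.20), and its second probe set, 593 against 537, gave 0.14. It was the only 1 of the 9 RGS genes above the filter that was higher, and it was higher in all 13 alternative settings (0.10 to 0.28). Of these, the filter settings, the 40th percentile floor and no floor left its ratio unchanged. Rgs16, an RGS protein induced in many cells by stimulation, had 719 against 730.2 (-0.02 ± 0.26, positive under median and trimmed mean scaling). The 4 thus spanned -0.08 to 0.20, against -0.69 and -0.50 for the R7 genes.

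Of the R12 family, Rgs10, a small RGS protein of neurons and microglia, had 453 in neurons from co-culture and 508 in neurons alone (log2 ratio -0.16 ± 0.27), and the multidomain Rgs12 had 261 against 278 (-0.09 ± 0.31). Neither exceeded the spread of a probe set. The other 6 RGS genes were below the filter: Rgs14 (26.0 in neurons from co-culture and just over the floor of 39.6 in neurons alone), Rgs1 (37.3 against 22.5) and Rgs18 (7.62 against 30.4), the last 2 known from blood cells and under the floor on both arrays, Rgs5 of pericytes (66.3 against 73.1), Rgs8 of Purkinje cells (121.7 against 132) and Rgs22 of testis (11.6 against 80.5, under the floor in neurons from co-culture). No conclusion on direction can be drawn at these intensities.

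How far a single probe set can be trusted was seen in the 9 genes with several. Their 12 other probe sets had the sign of the brightest in 4 cases, and 7 of the 12 were above the filter. Most of these ratios were near 0, where a sign says little, but those of Gna12, Gnaz, Gnb1 and Rgs3 differed from the brightest by more than 0.5 on the log2 scale. The genes with the largest differences, Gna11, Gnao1, Gnai2, Rgs9, Gng3 and Rgs7, each have 1 probe set with a single symbol and no such check.

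**Figure D4:**
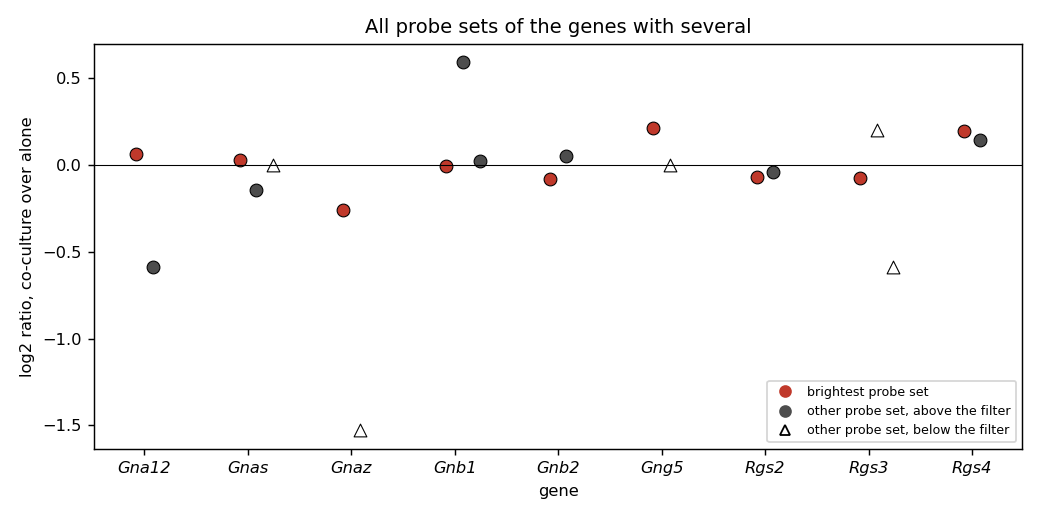
Log2 ratio of co-culture over alone for every probe set of the 9 genes with several, with the brightest in red, others above the filter in grey and those below it as open triangles. Probe sets of Rgs2, Rgs4 and Gnb2 lie close together, while those of Gna12, Gnaz and Gnb1 lie apart.

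The proteins that G proteins act on, and those that handle them, were read from 6 partner lists. Of 10 genes of the adenylyl cyclase and protein kinase A list above the filter, 5 were lower and 5 higher. Their median was -0.03, with none at 1.5-fold. With the mean over probe sets the median was -0.14, so the balance of the list depends on the probe sets used. The cAMP phosphodiesterase Pde4b had 355 in neurons from co-culture and 262 in neurons alone (log2 ratio 0.44), the cyclase Adcy3 452 against 371 (0.28), the regulatory subunit Prkar1b 1140 against 1417 (-0.31) and Prkar1a 1758 against 1695 (0.05). Pde4b has 2 probe sets and Prkar1a 3, and only the brightest of each is given. Of 9 genes of the phospholipase C beta and protein kinase C list, 7 were lower (median -0.16), and 1, the IP3 receptor Itpr3, was at 1.5-fold, higher, with 283 against 188 (0.59). Other genes of that list were Prkcb (0.35), Prkce (-0.28) and Prkcd (478 against 579, -0.28). The N-type calcium channel Cacna1b, the classical target of Go in these neurons, was the 1 of 6 G protein-gated channel genes above the filter, at 281 against 350.2 (-0.32 ± 0.27). Cacna1b has 2 probe sets, and their mean log2 ratio was -0.19, within that spread. The potassium channel genes Kcnj3, Kcnj5, Kcnj6 and Kcnj9 and the calcium channel Cacna1a, named after their values were seen, were all below the filter.

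Partners that do not carry the signal themselves showed 1 larger difference. Rce1, the protease that trims prenylated proteins such as gamma subunits, had 321 in neurons from co-culture and 519.7 in neurons alone, 1.62-fold lower (log2 ratio -0.70 ± 0.27). It was the 1 of 5 prenylation genes above the filter past 1.5-fold (median of the list -0.25), the others shown being the farnesyltransferase subunits Fntb (285 against 353, -0.31) and Fnta (1093 against 1063, 0.04) and the methyltransferase Icmt (-0.25). Of 8 chaperones, exchange factors and modulators, 6 were lower (median -0.07) and none reached 1.5-fold, with the anchoring protein Akap10 at -0.35, the Gi modulators Gpsm1 and Gpsm2 at -0.16 and -0.12 and the chaperone-like Pdcl3 at -0.03. The receptor kinases Grk2 (198 against 244, -0.30) and Grk6 (649 against 583, 0.15) went apart by their brightest probe sets. Grk2 has 1 probe set and Grk6 has 2. With the mean over probe sets the median of these 2 genes was -0.31, against -0.07 with the brightest. Grk6 was then lower as well, so its direction is not settled by these arrays. In the list of receptor kinases and arrestins, 6 of the 8 genes, both arrestins included, were below the filter.

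**Figure D5:**
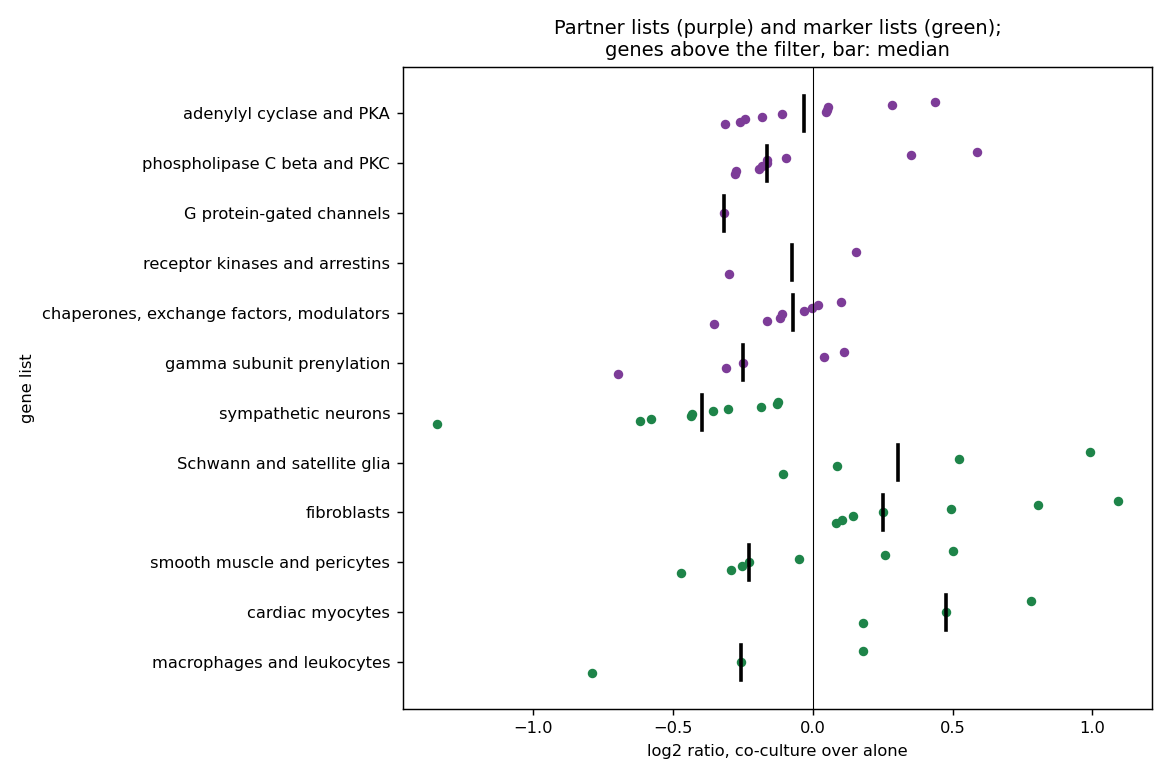
Log2 ratio of co-culture over alone for the genes above the filter in 6 lists of G protein partners (purple) and 6 lists of cell type markers (green), with a bar at each median. The sympathetic neuron markers lie wholly below 0 and the fibroblast markers wholly above it, while the partner lists span 0 apart from the single channel gene.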

How the data were processed

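Each probe set has a deposited intensity per array, linear and above 0. The authors quantified the arrays with dChip 1.3, per the series' design text, while the submitters' processing notes name MAS5. The sources used here do not say which of them made the deposited intensity, nor its scaling target. Low intensities depend most on how background was treated in that step.

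No further scaling was applied. Intensities under the pooled 20th percentile (39.6) were set to it before log2 was taken, and 57 control probe sets were left out. Of 15866 other probe sets, 12783 had 1 symbol, 312 several and 2771 none, and symbols were updated through gene identifiers to the GRCr8 RefSeq table, which left those of the 38 genes as they were. Promoters were matched by symbol for 32 of the 38. The SD of 1 probe set was taken from the 2 brightest probe sets of each gene with both above the filter, as the SD of their difference in log2 ratio over the square root of 2, in 4 groups by signal. Calculations used Python 3.11.15, pandas 2.3.3 and statsmodels 0.14.6 and were tested on simulated data.

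All genes above the filter, by its mean over both arrays, are named, and those below it were named after their values were seen. Of each partner list the 3 largest ratios and the brightest gene are named, and of each marker list the 2 brightest. One further partner list is not reported here. The genes, lists and rules were chosen with earlier results of these data known. The 13 alternatives changed the scaling (median, quantile, lowess, trimmed mean, spiked controls), the floor (40th percentile, none, a pseudocount), the filter (either array, 25th percentile, none) or the probe set (mean over all, or without those for several transcripts). The number of arrays limits the precision.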

Additional observations from a re-analysis of the deposited data

How the results depend on the processing

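Under the 13 alternatives, no difference of 1.5-fold or more in the G protein and RGS genes changed direction where its gene was measured. Filter settings, the 40th percentile floor and no floor left the ratios of these genes as they were. The mean over probe sets does the same for a gene with 1 probe set, and the scalings moved ratios by little. A kept direction or sign therefore says little in those settings. Of the 25 genes above the filter, 14 kept their sign in all 13, and 3 (Gnao1, Rgs9 and Rgs12) kept it in the 12 that measured them, the 8 others being Gna12, Gnas, Gnb1, Gnb2, Gng10, Rgs16, Rgs2 and Rgs3. The number at least 1.5-fold lower was 4 of 25, against 166 of 6084 among all genes. Without probe sets for several transcripts, which leaves out those of Gnao1 and Rgs9, it was 2 of 21 (all genes 155 of 5847). It was 3 of 25 under median scaling (103 of 6084) and 5 of 25 with the mean over probe sets, which adds Gnaz (181 of 6084). Scaling to the spiked controls gave 6 of 25, which adds Gng3 and Rgs7 (296 of 6084). Where dim genes enter, it was 6 of 32 with the filter at the 25th percentile (504 of 8542) and 6 of 38 with none (580 of 10411). In these 2 settings 1 gene, Rgs22, was 2-fold lower through the floor. The median of the alpha subunits was -0.31, and -0.64 with the mean over probe sets, where the second probe set of Gnaz counts. The median of the 25 genes stayed between -0.23 and -0.05 in the settings that kept all 25. The medians of 3 partner lists turned positive under median scaling, those of adenylyl cyclase and protein kinase A (0.06), the modulators (0.02) and the receptor kinases and arrestins (0.01). With the mean over probe sets, adenylyl cyclase and protein kinase A went from -0.03 to -0.14. The receptor kinases and arrestins went from -0.07 to -0.31, and to 0.15 with the filter at the 25th percentile. The median of the gamma subunits was -0.01 under scaling to the spiked controls and -0.02 with the filter at the 25th percentile. Among all genes above the filter, 166 were 1.5-fold lower and 94 higher, against 103 and 150 under median scaling, 123 and 129 after quantile normalization, 125 and 123 after lowess, 296 and 64 under scaling to the spiked controls, and 113 and 72 with a pseudocount. With the filter at the 25th percentile 504 were lower and 221 higher, and with none 580 and 259. The median of all genes moved to -0.11 under scaling to the spiked controls and to 0.07 under median scaling, and ratios of the set moved with it. No paired analysis was possible because each condition has 1 array, which also means that no replicate could be left out. Dim genes are limited by signal over background, and no detection calls were used here.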

Other observations

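The transcript of Gnai3, another Gi alpha subunit, is read on these arrays only through probe sets that the annotation assigns to both Gnai1 and Gnai3, so it has no value of its own above. Of these 2 probe sets, 1 had an intensity of 2136 in neurons from co-culture and 2202 in neurons alone (log2 ratio -0.04), and the other 617 against 688 (-0.16). They were thus closer than the probe set of Gnai1 alone (-0.31), with the sign in the same direction.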
